A study of Homo sapiens with 6 samples.

Results

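The proteasome is the large protease that degrades proteins tagged with ubiquitin. Its subunits were examined in U251 cells, a human glioblastoma (GBM) cell line, with and without knockdown of TRAF2, the adaptor and ubiquitin ligase that links TNF receptors to NF-κB and JNK signalling. The members were the genes whose symbols are PSM, then a letter from A to G, then a number. PSMB8 and PSMB9 were set apart. This rule picked 45 of the 23002 genes in the table. It uses no expression value, although it was set with earlier results of these data known. They are 16 core genes (PSMA and PSMB), 20 base and lid genes (PSMC and PSMD) and 9 genes of activators, the inhibitor and chaperones (PSME, PSMF and PSMG).

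RNA was sequenced from 3 samples of U251 cells expressing a non-targeting control hairpin (sh-NC) and 3 samples expressing a hairpin against TRAF2 (sh-TRAF2). Both are stable lines made with lentivirus and selected with puromycin, so the control cells carry a hairpin as well. The sources used here do not state which TRAF2 hairpin was sequenced, or whether a line was a clone, and no TNF-α was named for these samples. Each gene has an FPKM value per sample, which is the number of fragments scaled by transcript length and by library size. The samples can thus be compared for a given gene. Differences between genes also depend on the length used for each gene, which the sources used here do not give.

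The reads behind the FPKM values numbered 33999558 to 36823562 per sample. TRAF2 itself was at 15.1, 18.4 and 15.3 FPKM in the 3 sh-NC samples and at 3.26, 3.22 and 3.33 FPKM in the 3 sh-TRAF2 samples, a log2 fold change of -2.27 (limma adjusted p = 1.16e-06, standard error 0.079). The mesenchymal glioma genes VIM and CD44 were at mean FPKM values of 1240 and 189 in sh-NC and 1580 and 179 in sh-TRAF2. The astrocyte gene GFAP was low at means of 0.467 and 1.18 FPKM and was called higher (log2 fold change 1.11, limma adjusted p = 0.0382) although its groups overlapped, and S100B was at 0 in sh-NC and 0.00761 in sh-TRAF2. Of the other glioma markers, the stem cell filament gene NES rose from 5.35 to 11.7 FPKM (1.12, adjusted p = 1.91e-05) and EGFR fell from 31.8 to 14.3 FPKM (-1.14, adjusted p = 2.23e-06), changes above those of all 44 tested proteasome genes in size, whose part in the results was not tested. Of 12 measured markers of other cells, 2 reached a mean of 1 FPKM, the synaptic gene SYT1 and the lysosomal gene CD68, whereas the defining markers RBFOX3 (neurons), PTPRC (leukocytes) and EPCAM (epithelium) were at or near 0. The 3 neuronal markers summed to 24.1 to 27.3 FPKM in sh-NC and 13.9 to 15.0 in sh-TRAF2, almost wholly from SYT1, and the 3 immune markers to 16.3 to 17.1 and 15.4 to 17.8. The part of SYT1 in the results was likewise not tested.

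The 26S proteasome is built from a barrel, the 20S core, and a cap, the 19S regulatory particle. In the core, outer rings of alpha subunits form the gate and inner rings of beta subunits hold the protease sites. The cap has a base, whose ring of ATPases unfolds the substrate and threads it into the core, and a lid, which removes ubiquitin first. Activators such as PA28 and PA200 can replace the cap, and dedicated chaperones assemble both particles before release. Within a core the subunits are needed in equal numbers, and so are those within a cap. In glioblastoma cells, as in other cancers with a heavy protein load, the proteasome is a known drug target, and NF-κB signalling itself depends on it to destroy IκB.

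After TRAF2 knockdown, the proteasome genes changed little in size and not all in the same direction. Of the 17 cap subunits 11 rose and 0 fell by limma, with the ATPase genes PSMC3, PSMC2 and PSMC4 highest at 127% to 131% of the sh-NC mean, and with quantile normalization between samples 7 rose and 1 fell. PSMA4 and PSMA5 of the outer core ring, the cap chaperone PSMD5 and the core chaperone PSMG2 fell, to between 68.1% and 84.2% of the sh-NC mean. Of the 44 members with enough signal to test, 16 were higher, 7 were lower and 21 were not called at a Benjamini-Hochberg adjusted p under 0.05 by limma, which fits a linear model to log2(FPKM + 0.1) and adjusts over all 11870 genes tested. The share called was 52.3% of the members beside 44.6% of all tested genes. Among all tested genes 23.7% were higher and 20.9% were lower. The log2 fold changes of the members lay between -0.55 and 0.39 with a median of 0.08, beside 0.02 for all tested genes, and 32 were above 0. Over all tested members, quantile normalization gave 11 higher and 8 lower and a median of 0.029.

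**Figure D1:**
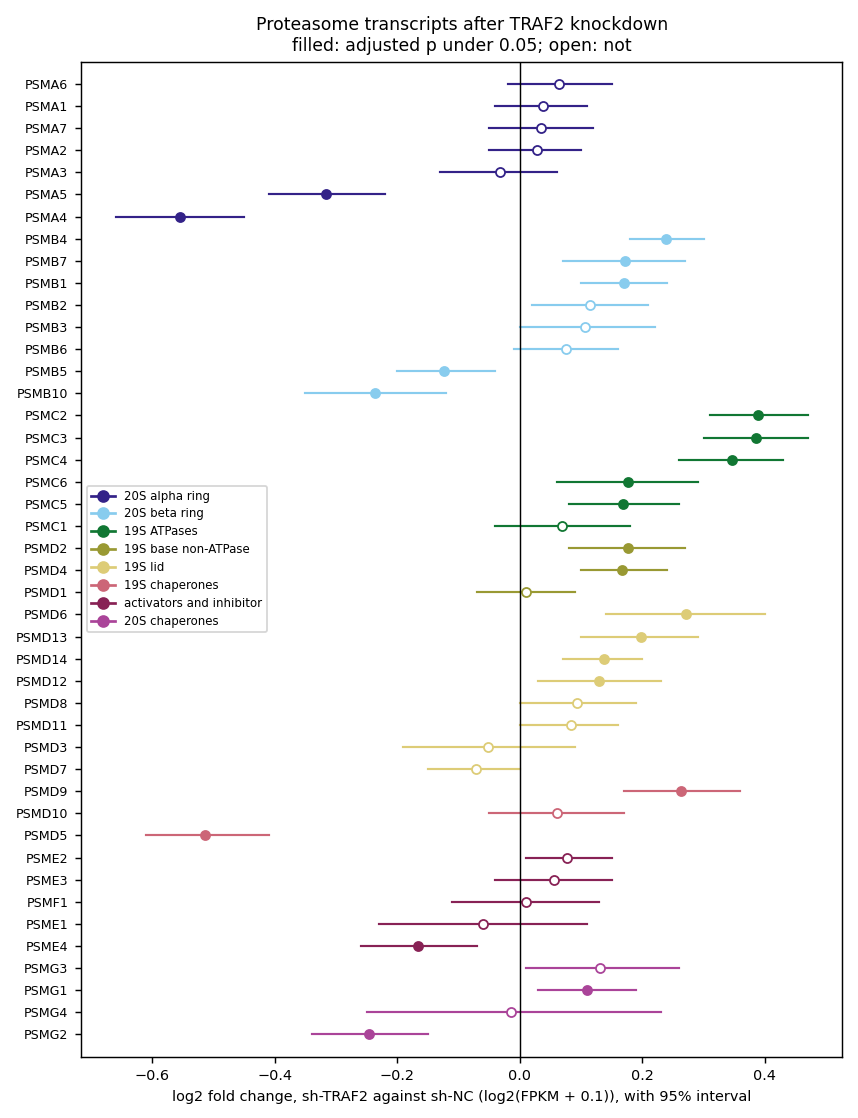
Log2 fold change of each of the 44 tested proteasome genes (sh-TRAF2 against sh-NC, on the log2(FPKM + 0.1) scale), with 95% intervals from limma, coloured by role. Filled points passed an adjusted p under 0.05. The 19S ATPases sit to the right of 0, at 0.07 to 0.39, and PSMA4 and PSMD5 lie farthest to the left, at -0.55 and -0.51.

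No member passed the stricter rule of an absolute log2 fold change above 1 with an adjusted p under 0.05, which 1.72% of all tested genes did. The count was 0 under all 15 alternatives as well, limma-voom included. The 3 samples of one group did not overlap the 3 of the other for 20 members that were higher and 8 that were lower in sh-TRAF2, while 55.5% of all tested genes showed no overlap in one direction or the other. Such a split gives p = 0.1 in a two-sided exact permutation test, the smallest value that 3 against 3 samples allow. The members took 0.807% to 0.848% of the reads in sh-NC and 0.873% to 0.895% in sh-TRAF2. In bulk RNA, fewer cells using a gene and less of its RNA per cell cannot be told apart.

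The promoters of 3 members are shown because these had the smallest adjusted p among members that hold TGACNNNGC, the core of the antioxidant response element, to which the proteasome gene regulators NFE2L1 and NFE2L2 bind. Each sequence runs 5′ to 3′ on the strand of the gene, from 250 bases before the start site to 50 bases after it, and capitals mark the match. PSMA4 (chr15:78540536-78540835, plus strand) has TGACTCTGC from base -126, PSMD5 (chr9:120842873-120843172, minus strand) has TGACACGGC from base -134, and PSMC4 (chr19:39970915-39971214, plus strand) has TGACCAAGC on the opposite strand from base 28, so that its capitals read as the reverse complement. The sequences and the start sites are those of RefSeq on GRCh38.p14.
PSMA4: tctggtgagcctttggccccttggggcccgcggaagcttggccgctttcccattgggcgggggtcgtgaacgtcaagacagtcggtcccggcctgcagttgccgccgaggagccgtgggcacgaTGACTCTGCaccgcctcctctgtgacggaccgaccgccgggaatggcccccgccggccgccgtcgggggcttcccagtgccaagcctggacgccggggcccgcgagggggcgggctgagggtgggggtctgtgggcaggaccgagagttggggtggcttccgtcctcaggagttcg
PSMD5: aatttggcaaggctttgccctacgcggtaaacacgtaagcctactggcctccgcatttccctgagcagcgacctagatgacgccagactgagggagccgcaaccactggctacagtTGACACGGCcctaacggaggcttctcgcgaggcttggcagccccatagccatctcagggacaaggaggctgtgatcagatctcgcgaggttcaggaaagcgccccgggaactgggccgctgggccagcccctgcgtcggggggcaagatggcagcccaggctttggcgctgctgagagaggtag
PSMC4: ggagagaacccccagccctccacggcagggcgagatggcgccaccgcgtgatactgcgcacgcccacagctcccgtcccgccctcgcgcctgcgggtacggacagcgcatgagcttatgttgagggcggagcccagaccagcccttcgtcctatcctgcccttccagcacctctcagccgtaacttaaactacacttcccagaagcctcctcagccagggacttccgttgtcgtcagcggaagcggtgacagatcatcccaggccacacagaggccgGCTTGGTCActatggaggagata
These 3 transcripts moved in both directions, with log2 fold changes of -0.55, -0.51 and 0.35.

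The RefSeq promoter table held 39 of the 45 members. TGACNNNGC, searched on both strands, lay in at least 1 promoter of 14 of these 39 genes (35.9%), beside 19.5% of the 9608 tested genes with a promoter there. Of all 35116 promoters of the same length, counted singly and not by gene, 13.3% held it, so that share is in another unit. It was present in 5 of 13 members that were higher, 4 of 7 that were lower and 5 of 18 that were not called. The more exact TGACTCAGC, one of the sequences TGACNNNGC covers, was in 0 members, 0.729% of the tested genes and 0.561% of single promoters. CCAAT, the box bound by NF-Y, was in 19 members (48.7%) beside 44.1% of the tested genes and 34.6% of single promoters. CGGAAG, a core sequence of ETS factors, was in 23 members (59.0%) beside 39.9% of the tested genes and 19.5% of single promoters. A match describes the letters in the window and is not a measured binding site.

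The alpha ring forms the gate of the core, and 2 of its 7 genes fell while 0 rose by limma, 0 also at an unadjusted p under 0.05 and by limma-voom on the reads. The share called was 28.6%, below the 44.6% of all tested genes, of which 20.9% were lower. PSMA4 was at 50.4, 48.7 and 51.2 FPKM in sh-NC and at 32.5, 34.1 and 35.7 in sh-TRAF2. Its highest sh-TRAF2 sample lay well below its lowest sh-NC sample, and the log2 fold change of -0.55 (limma adjusted p = 4.87e-05, standard error 0.045) was the lowest of all members. The gene lies on chromosome 15 at 78540405 to 78552419 on the plus strand (GRCh38, GENCODE 29), and no named pseudogene or overlapping exon of another gene was found for it. PSMA5 was at 56.0, 59.3 and 55.3 FPKM in sh-NC and at 44.3, 47.1 and 45.5 in sh-TRAF2, for a log2 fold change of -0.32 (adjusted p = 0.000553, standard error 0.042), again with no overlap between the groups. The other 5 alpha genes did not pass the test. PSMA7 had the highest FPKM, at 460 to 500 over the 6 samples, with a log2 fold change of 0.03. PSMA2 was at 116 to 121 FPKM (0.03), PSMA3 at 99.8 to 109 (-0.03), PSMA6 at 66.2 to 72.4 (0.06) and PSMA1 at 52.3 to 54.9 (0.04).

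The beta ring holds the protease sites. PSMB6, PSMB7 and PSMB5 are its constitutive catalytic subunits, with caspase-like, trypsin-like and chymotrypsin-like activity. PSMB7 was at 246, 264 and 243 FPKM in sh-NC and at 285, 294 and 270 in sh-TRAF2 and rose by a log2 fold change of 0.17 (limma adjusted p = 0.0138, standard error 0.044). PSMB5, the main target of bortezomib, was at 114, 116 and 110 FPKM in sh-NC and at 106, 104 and 101 in sh-TRAF2, so it fell by 0.12 on the log2 scale (standard error 0.035, adjusted p = 0.0212). The groups did not overlap for either gene. PSMB6 was at 190, 201 and 189 FPKM against 202, 211 and 199, where the groups overlapped, and its log2 fold change of 0.07 (95% interval -0.01 to 0.16, adjusted p = 0.135) did not pass. The 3 catalytic genes thus gave 1 higher, 1 lower and 1 not called. The PSMB5 call was lost without sh-NC replicate 1 or 2, without sh-TRAF2 replicate 2 or 3 and with eBayes fitted without a trend, with an adjusted p between 0.00165 and 0.0805 over its 15 alternatives, and the PSMB7 call was lost without sh-TRAF2 replicate 2, with no filter on low values and with eBayes without a trend (0.004 to 0.0536 over 15).

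Among the structural beta subunits, PSMB4 was at 212, 217 and 216 FPKM in sh-NC and at 256, 253 and 252 in sh-TRAF2, a log2 fold change of 0.24 (limma adjusted p = 0.000276, standard error 0.028). PSMB1 was at 201, 196 and 194 against 223, 223 and 219 FPKM (log2 fold change 0.17, standard error 0.029, adjusted p = 0.00208). Both rose without overlap between the groups. PSMB2 at 54.5 to 62.4 FPKM (log2 fold change 0.11) and PSMB3 at 148 to 177 FPKM (0.11) were not called. PSMB11, the beta subunit of thymic epithelial cells, was not tested: it had no read in 5 of the samples and a value of 0.0154 FPKM, taken as 1 read, in sh-TRAF2 replicate 3.

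PSMB10 is the inducible subunit that takes the place of PSMB7 when the immunoproteasome is built. It was at 53.8, 54.8 and 56.9 FPKM in sh-NC and at 43.9, 49.4 and 47.2 in sh-TRAF2, and fell by 0.24 on the log2 scale (standard error 0.050, limma adjusted p = 0.00552). Its exons overlap those of another gene model on the same strand, which leaves its reads uncertain. The other inducible subunits were set apart from the members. PSMB8, which replaces PSMB5, was at 32.7, 33.3 and 37.6 FPKM in sh-NC and at 37.3, 45.3 and 43.7 in sh-TRAF2 (log2 fold change 0.28, adjusted p = 0.021), with sh-TRAF2 replicate 1 inside the sh-NC range. PSMB9, which replaces PSMB6, was at 16.0, 13.8 and 15.0 against 14.1, 18.2 and 20.3 FPKM (0.22, adjusted p = 0.182) and was not called.

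Within each sample, each inducible subunit was set against the constitutive one it replaces. The log2 ratio of PSMB8 over PSMB5 averaged -1.71 ± 0.14 (SD, n = 3) in sh-NC and -1.30 ± 0.17 in sh-TRAF2, a difference of 0.41, while that of PSMB10 over PSMB7 averaged -2.18 ± 0.086 and -2.59 ± 0.094, a difference of -0.41. The difference for PSMB9 over PSMB6 was 0.14, from -3.69 ± 0.15 to -3.55 ± 0.28. In two-sided exact permutation tests p was 0.1 for PSMB8 over PSMB5, 0.1 for PSMB10 over PSMB7 and 0.4 for PSMB9 over PSMB6, and none of the 5 ratios computed could reach 0.05 with 3 samples a group.

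**Figure D2:**
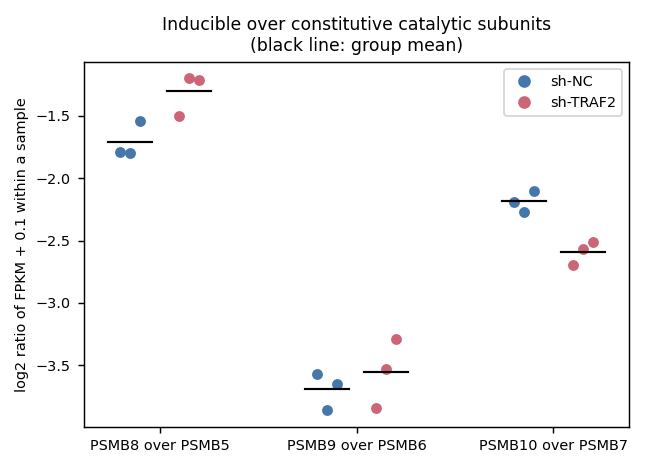
Log2 ratio of the FPKM values (each plus 0.1) of an inducible catalytic subunit over the constitutive one it replaces, in each sample, with the group mean as a black line. PSMB8 over PSMB5 was 0.41 higher and PSMB10 over PSMB7 was 0.41 lower in sh-TRAF2, and the samples of PSMB9 over PSMB6 overlapped.

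PSMB10 and the PA28 subunits PSME1 and PSME2 are known targets of interferon. Of the 6 interferon-inducible genes set beside them, 5 rose (83.3% called, beside 44.6% of all tested genes), with a median log2 fold change of 0.89. ISG15, a ubiquitin-like modifier, was at 148, 132 and 174 FPKM in sh-NC and at 287, 335 and 358 in sh-TRAF2 (log2 fold change 1.11, limma adjusted p = 0.000115). The antiviral genes IFIT1 (1.16, adjusted p = 0.0227) and MX1 (1.03, adjusted p = 0.0212) passed the stricter fold rule as well, and TAP1, the peptide transporter that feeds class I molecules, rose by 0.56 (adjusted p = 0.000379). IRF1 was at -0.12 and was not called. Beside these, PSMB10 fell, and PSME1 and PSME2 at log2 fold changes of -0.06 and 0.08 were not called. Of the inducible subunits set apart from the members, PSMB8 rose by 0.28 (adjusted p = 0.021) and PSMB9 at 0.22 (adjusted p = 0.182) was not called.

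The 6 ATPases form the ring that unfolds substrates, and 5 of them rose while PSMC1 was not called (83.3% called, beside 44.6% of all tested genes). PSMC2 was at 67.9, 66.2 and 65.0 FPKM in sh-NC and at 89.3, 87.0 and 84.5 in sh-TRAF2 (log2 fold change 0.39, standard error 0.036, limma adjusted p = 9.94e-05). PSMC3 was at 133, 130 and 127 against 166, 169 and 176 FPKM (0.39, standard error 0.035, adjusted p = 8.88e-05). PSMC4 was at 95.1, 98.4 and 90.7 against 122, 121 and 118 FPKM (0.35, standard error 0.038, adjusted p = 0.000222). In each of these 3 genes all sh-TRAF2 samples lay above all sh-NC samples, and no named pseudogene or overlapping exon was found for them. PSMC5 at 156 to 188 FPKM rose by 0.17 and PSMC6 at 16.0 to 19.3 FPKM rose by 0.18. Exons of PSMC5 overlap those of FTSJ3 on the other strand. PSMC1 at 17.8 to 19.8 FPKM had a log2 fold change of 0.07, and with 13 named pseudogenes its reads are uncertain. All 6 log2 fold changes stayed above 0 under the 15 alternatives, whereas the call of PSMC5 was lost with quantile normalization, and that of PSMC6 without sh-NC replicate 1 or 2 or sh-TRAF2 replicate 2 or 3.

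**Figure D3:**
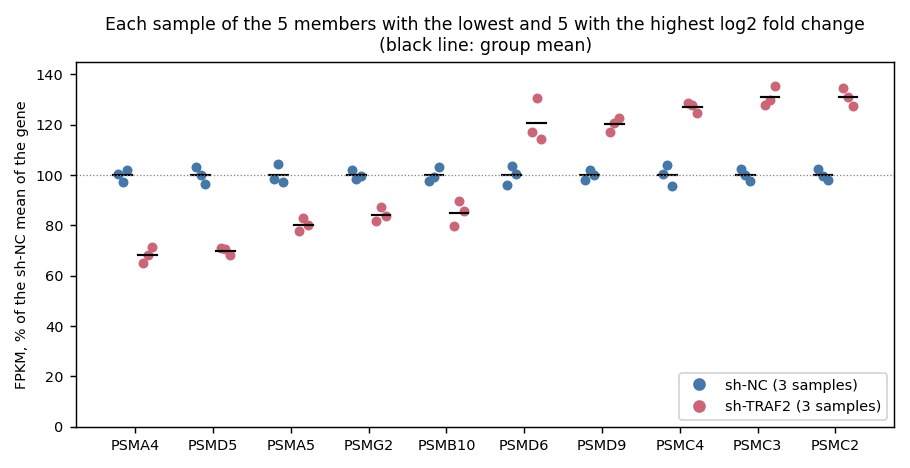
FPKM in each of the 6 samples as a percentage of the sh-NC mean of the same gene, for the 5 members with the lowest and the 5 with the highest log2 fold change, with the group mean as a black line. The sh-TRAF2 means run from 68.1% (PSMA4) and 69.9% (PSMD5) up to 131% (PSMC2 and PSMC3), and the groups do not overlap for any of the 10 genes, which were picked by the size of their change.

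The base also holds large scaffold proteins and ubiquitin receptors. PSMD2, a scaffold and the cap gene with the highest FPKM, was at 436 to 535 FPKM over the samples and rose by a log2 fold change of 0.18. PSMD4, a ubiquitin receptor, was at 157, 161 and 153 FPKM in sh-NC and at 176, 175 and 178 in sh-TRAF2 (0.17, standard error 0.031, limma adjusted p = 0.00295), so it rose with no overlap. PSMD1, the other scaffold, was at 40.2 to 41.8 FPKM and was not called (0.01). The PSMD2 call was lost with quantile normalization and with no filter on low values (adjusted p between 0.00243 and 0.105 over 15 alternatives).

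In the lid, 4 of 8 genes rose and 0 fell by limma, 0 also at an unadjusted p under 0.05 and by limma-voom. The share called was thus close to the 44.6% of all tested genes, of which 23.7% were higher and 20.9% were lower. PSMD14, the enzyme that cuts ubiquitin chains from the substrate as it enters, was at 184, 188 and 182 FPKM in sh-NC and at 205, 204 and 201 in sh-TRAF2 (log2 fold change 0.14, standard error 0.029, limma adjusted p = 0.00564). PSMD6 was at 42.9, 46.3 and 45.0 against 52.4, 58.4 and 51.2 FPKM (0.27, standard error 0.056, adjusted p = 0.00517). PSMD13 was at 62.7, 62.0 and 64.6 against 68.7, 73.7 and 74.9 FPKM (0.20, standard error 0.042, adjusted p = 0.00587). These scaffold and enzyme genes of the lid showed no overlap between the groups. PSMD12 at 43.7 to 51.5 FPKM rose by 0.13, a call lost under 9 of its 15 alternatives, among them the removal of any one sample other than sh-TRAF2 replicate 3. PSMD8 (248 to 282 FPKM, log2 fold change 0.09), PSMD11 (73.6 to 81.6 FPKM, 0.08), PSMD3 (36.4 to 42.2 FPKM, -0.05) and PSMD7 (99.8 to 109 FPKM, -0.07), the inactive partner of PSMD14, were not called. The PSMD14 call was lost with quantile normalization, where PSMD7 passed as lower and the lid counts were 2 higher and 1 lower. Antisense transcripts overlap exons of PSMD14 and PSMD6, and SIRT3 overlaps those of PSMD13 on the other strand. Without a stated use of strand in counting, their reads cannot be told apart.

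The summed level of the 17 cap subunits, chaperones left out, was set against that of the 14 constitutive core subunits in each sample. This ratio was 0.939, 0.937 and 0.922 in sh-NC and 0.996, 1.00 and 1.01 in sh-TRAF2, so all sh-TRAF2 samples lay higher. The median FPKM of the cap genes was 73.6 to 78.5 in sh-NC and 84.5 to 89.3 in sh-TRAF2, and that of the core genes was 113 to 117 and 111 to 112. Of these cap genes 11 rose and 0 fell, or 7 and 1 with quantile normalization. Of the core genes 3 rose and 3 fell under both, and 5 rose and 2 fell without sh-NC replicate 2. The shares called were 64.7% of these cap genes and 42.9% of these core genes, beside 44.6% of all tested genes. Both sums rest heavily on PSMD2 and PSMA7, the gene with the highest FPKM in each. As a description of members examined with earlier results known, the ratio was given no test.

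**Figure D4:**
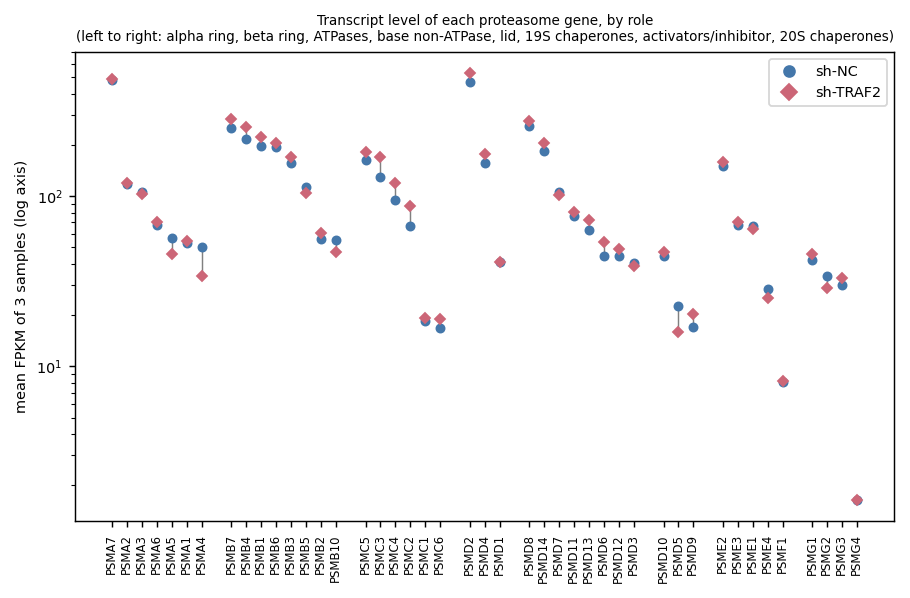
Mean FPKM of the 3 samples in each group (log axis) for the 44 tested members, ordered by role and then by level. Levels run from 1.65 FPKM for PSMG4 to 496 FPKM for PSMD2 as the mean of the 6 samples, and most pairs of points lie close together beside the differences between genes. Those differences also depend on the length used for each gene.

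Within a core, and within a cap, these subunits are built in equal numbers. Their FPKM values were nevertheless far apart, which depends in part on the length used for each gene. PSMA4, for example, had 5058 to 8503 reads over the 6 samples and PSMA7 had 8094 to 8609, a smaller gap than in FPKM. Within the sh-NC samples the core genes ranged from 48.7 FPKM (PSMA4) to 500 FPKM (PSMA7) and the cap genes from 16.0 (PSMC6) to 488 (PSMD2). The standard deviation of log2 FPKM across the core genes was 0.99 to 1.02 in sh-NC and 1.11 to 1.14 in sh-TRAF2, while across the cap genes it was 1.26 to 1.32 and 1.31 to 1.32. PSMA4, the core gene with the lowest FPKM in sh-NC, was also the core gene that fell most. The median of the tested members, 68.3 FPKM, stood above the 7.67 FPKM of all tested genes.

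The cap chaperones each hold a pair of ATPases during assembly and leave the finished particle, and they moved apart. PSMD5, which holds PSMC2 and PSMC1, was at 23.3, 22.6 and 21.8 FPKM in sh-NC and at 16.0, 15.9 and 15.4 in sh-TRAF2, a log2 fold change of -0.51 (limma adjusted p = 6.56e-05, standard error 0.044). PSMD9, which holds PSMC3 and PSMC6, was at 16.6, 17.3 and 17.0 against 19.9, 20.5 and 20.8 FPKM (0.26, standard error 0.041, adjusted p = 0.00128). PSMD5 fell while its client PSMC2 rose, and PSMD9 rose together with PSMC3 and PSMC6. PSMD10, which holds PSMC4 and PSMC5, was at 43.5 to 49.3 FPKM with a log2 fold change of 0.06 and was not called. PSMC4 and PSMC5 rose all the same, and PSMC1, the other client of PSMD5, was not called. Whether chaperones and clients move together was not tested. Exons of PSMD9 overlap those of WDR66 on the same strand, which leaves its reads uncertain.

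The core chaperones work as pairs as well. PSMG1 and PSMG2 form a dimer on which the alpha ring is assembled. PSMG2 was at 34.7, 33.5 and 33.9 FPKM in sh-NC and at 27.8, 29.7 and 28.5 in sh-TRAF2, so it fell by 0.25 on the log2 scale (standard error 0.040, limma adjusted p = 0.00161), whereas PSMG1 at 41.1 to 46.3 FPKM rose by 0.11. The PSMG1 call was lost under 9 of its 15 alternatives, among them the removal of any one sample other than sh-NC replicate 2. The members of the second dimer, PSMG3 at 28.2 to 34.0 FPKM (log2 fold change 0.13) and PSMG4 at 1.44 to 1.75 FPKM (-0.01), were not called. Exons of PSMG2 overlap those of SPIRE1 and CEP76 on the other strand.

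The activators dock on the core in place of the cap. PSME4, also known as PA200, was at 27.8, 29.5 and 27.9 FPKM in sh-NC and at 25.8, 24.9 and 25.2 in sh-TRAF2 and fell by 0.17 on the log2 scale (standard error 0.041, limma adjusted p = 0.0114). PSME1 and PSME2 together form the cytoplasmic PA28. PSME1 was at 61.5, 70.7 and 68.4 FPKM against 57.4, 68.2 and 67.0 (log2 fold change -0.06, 95% interval -0.23 to 0.11, adjusted p = 0.544), and PSME2 was at 149, 152 and 150 against 155, 160 and 162 (0.08, 0.01 to 0.15, adjusted p = 0.0728). PSME3, the nuclear PA28 subunit, was at 67.0, 69.7 and 65.8 FPKM against 71.9, 71.9 and 66.7 (0.06, -0.04 to 0.15, adjusted p = 0.323). PSMF1, the inhibitor PI31, was at 8.01, 7.97 and 8.40 FPKM against 8.35, 8.41 and 7.79 (0.01, -0.11 to 0.13, adjusted p = 0.901). These 4 were not called, and PSME2 was the only one of them whose groups did not overlap. The log2 ratio of PSME1 over PSME2 averaged -1.17 ± 0.09 (SD, n = 3) in sh-NC and -1.31 ± 0.11 in sh-TRAF2 (two-sided exact permutation p = 0.3), and that of PSME1 over PSME3 averaged -0.02 ± 0.096 and -0.13 ± 0.17 (p = 0.4).

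The 3′UTRs of the members were searched for ATTCCAC, bases 10 to 16 of the 21-base target of one of the 2 TRAF2 hairpins, because tested genes that carry it had a median log2 fold change of -0.104 beside 0.024 for those without it. It lay in the longest 3′UTR of 5 of the 44 tested members (11.4%), beside 1246 of 10837 tested genes with a known 3′UTR (11.5%). Carriers among the members were PSMA3, PSMD3, PSMD5, PSMD9 and PSME4, with a median of -0.052 beside 0.083 for the other members. The heptamer was chosen by fold changes that include those of the members, so these medians are no separate check. Neither these medians nor those of all tested genes take account of the length of the 3′UTR. Whether this hairpin was the one sequenced is not stated. The sites of the 2 carriers that fell are shown with 10 bases on each side on the transcript strand (GRCh38, GENCODE 29) and the match in capitals. They lie at chr9:120817177-120817203 in PSMD5 and at chr2:53865521-53865547 and chr2:53865412-53865438 in PSME4, all in the 3′UTR on the minus strand.
PSMD5: tccatttctgATTCCACtttcaaagtc
PSME4, first: ttcatcaaaaATTCCACaccctcaggt
PSME4, second: gttagtctgcATTCCACagcttctcag
Of the other carriers PSMD9 rose and PSMA3 and PSMD3 were not called, and PSMA4, PSMA5, PSMG2, PSMB10 and PSMB5, which fell, do not carry it. Whether the hairpin acts on these transcripts was not tested.

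Subunits and partners whose symbols fall outside the rule gave 2 higher and 4 lower of 17 tested, with a median log2 fold change of -0.03. That is 35.3% called, beside 44.6% of all tested genes. AKIRIN2, which carries proteasomes into the nucleus after mitosis, was at 44.6, 44.8 and 45.3 FPKM in sh-NC and at 78.0, 78.2 and 76.2 in sh-TRAF2, a log2 fold change of 0.79 (limma adjusted p = 2.4e-06) that lay above those of all 44 tested members. USP14, a deubiquitinase that docks on the cap, was at 49.2, 50.2 and 50.3 against 42.3, 43.0 and 42.3 FPKM and fell by 0.23 (adjusted p = 0.000868). PSME3IP1, a partner of PSME3, fell by 0.28 (adjusted p = 0.00322). ADRM1, the ubiquitin receptor of the base and named here for that role after its value was seen, rose by 0.11 (adjusted p = 0.0374).

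Genes that drive proteasome transcription or supply ubiquitin gave 6 higher and 6 lower of 16 tested (75.0% called, beside 44.6% of all tested genes). NFE2L2, the stress factor NRF2, was at 73.7, 67.6 and 72.6 FPKM in sh-NC and at 44.8, 44.6 and 44.7 in sh-TRAF2 and fell by 0.67 on the log2 scale (limma adjusted p = 1.23e-05). NFE2L1, which raises proteasome genes when the particle is inhibited and is named here for that role after its value was seen, was at 162, 149 and 168 against 118, 127 and 138 FPKM and fell by 0.32 (adjusted p = 0.0045). Of the genes listed because they act on such factors, DDI2 (0.20), NGLY1 (0.14) and VCP (0.14) rose and SEL1L (-0.23) fell. SYVN1 (-0.11) was not called, and all of these were named after their values were seen. The ubiquitin gene UBB rose by a log2 fold change of 0.28 (adjusted p = 0.000259). Without sh-TRAF2 replicate 3, 7 genes of this list were called.

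Factors that bring substrates to the proteasome, p97 with its cofactors and the shuttle receptors, gave 7 higher and 5 lower of 19 tested. That is 63.2% called, beside 44.6% of all tested genes. RAD23B, a shuttle receptor, fell by 0.52 on the log2 scale (limma adjusted p = 2.13e-05). FAF2, a membrane adaptor of p97, fell by 0.73 (adjusted p = 3.18e-05).

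Other large complexes gave shares called between 65.0% and 100%, beside 44.6% of all tested genes. The COP9 signalosome, which has the architecture of the lid, had 6 higher and 1 lower of 10 (median log2 fold change 0.16), with COPS8 at 0.92 (limma adjusted p = 5.79e-06), COPS2 at 0.51 (0.000305) and COPS9 at 0.37 (0.000449). The translation factor eIF3, which is built on the same plan, had 8 higher and 1 lower of 13 (median 0.11), with EIF3M at 0.58 (1.02e-05), EIF3H at 0.26 (0.0018) and EIF3D at 0.28 (0.00254), but 5 called without sh-NC replicate 3 or without sh-TRAF2 replicate 2. All 8 genes of the chaperonin CCT, which folds actin and tubulin, rose (median 0.29), with CCT6A at 0.36 (4.7e-05), CCT2 at 0.45 (4.95e-05) and CCT4 at 0.30 (0.000126). Of 80 ribosomal protein genes tested, 45 were higher and 7 were lower (median 0.12), with RPS4X at -0.62 (6.91e-06) and RPL12 at 0.40 (1.72e-05). The medians of the 17 cap genes, 0.17, and of the 14 constitutive core genes, 0.05, lay among and below these and were 0.086 and -0.014 with quantile normalization, and whether the proteasome differs from them was not tested.

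**Figure D5:**
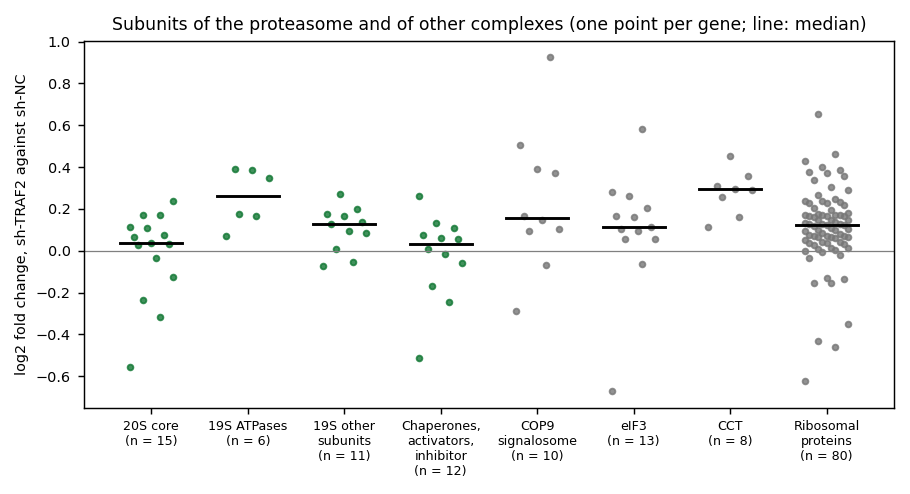
Log2 fold change (sh-TRAF2 against sh-NC) of each gene of the proteasome (green) and of 4 other complexes (grey), with the median of each column as a black line. The ATPases have a median of 0.26 and CCT of 0.29, and the 20S core has a median of 0.04 with PSMA4 as its lowest point.

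Heat shock genes are known to rise when the proteasome is inhibited. Of the 9 tested, 5 rose and 1 fell, with a median log2 fold change of 0.21. The share called was 66.7%, beside 44.6% of all tested genes. HSP90AA1 was at 129, 123 and 128 FPKM in sh-NC and at 227, 218 and 220 in sh-TRAF2 (0.81, limma adjusted p = 2.66e-06), HSPA8 rose by 0.31 (adjusted p = 0.000447), and BAG3, a co-chaperone of the same response, fell by 0.32 (adjusted p = 0.000258). HSPA1B (0.15, adjusted p = 0.203), DNAJB1 (0.03, 0.718) and HSF1 (-0.01, 0.868), named here after their values were seen, were not called. HSPA1A, at means of 0.314 FPKM in sh-NC and 0.224 in sh-TRAF2, was not tested.

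The members lie on many chromosomes. Chromosome 14 held 7 of the tested members, with log2 fold changes from -0.12 to 0.18, and chromosome 17 held 7, from -0.05 to 0.17. PSMB4 and PSMA5, both on chromosome 1, moved in opposite directions (0.24 and -0.32). Named pseudogenes were found for 12 members, exon overlap on the same strand for 7 and on the other strand for 17, and of the 7 members that fell, PSMA4, PSMA5, PSMD5 and PSMB5 had neither.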

How the data were processed

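RNA was sequenced from 3 sh-NC and 3 sh-TRAF2 samples of U251 cells, extracted with TRIzol and sequenced by a company. The authors deposited FPKM values for 23002 genes, and the submitters' processing notes name HISAT2, HTSeq, DESeq2 and R 3.2.0 without giving their roles. The genome build, annotation and use of strand are not given in the sources used here. Groups were taken from the sample titles, and 0 value columns were left unmapped. The study's sequencing after TNF-α treatment was not analysed here.

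FPKM values were transformed to log2(FPKM + 0.1), genes with a mean of at least 0.5 FPKM were kept, and the groups were compared by a two-sided moderated test in limma 3.58.1 (under R 4.3.3, eBayes fitted with a mean-variance trend), with Benjamini-Hochberg adjustment over 11870 genes. A fold change on this scale understates that of low genes. FPKM values were whole multiples of 1 read for all 23002 genes (relative tolerance 1e-07), which gave the read totals. The fewest reads possible were assumed for 2643 genes detected in a single sample, PSMB11 among them. Samples of one group differed by more than sampling noise (chi-square per gene 5.25 to 13.1), and each was counted as 1 replicate. The p-values measure the spread between samples of a stable line, so other differences between the lines cannot be told apart from loss of TRAF2. Tests were also run on simulated data. Within-sample ratios were compared by two-sided exact permutation tests with Python 3.11.15 and scipy 1.17.1.

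Members and lists were chosen with earlier results of these data known, and no list was tested as a set. Full statistics are given for TRAF2, PSMB5, PSMB6, PSMB7, PSMB10, PSME1 to PSME4, PSMF1, PSMD14 and the 10 higher and up to 10 lower members with the smallest adjusted p, and for each other list the 3 genes with the smallest adjusted p and any past the fold rule are named. Some genes that this rule picks are not reported here. Alternatives were another pseudocount (1 or 0.01), another filter (none or a mean of 1 FPKM), rescaling to a common total, quantile normalization, a replicate block, eBayes without a trend, leaving out each sample, and limma-voom on the recovered reads. Promoters came from RefSeq (GRCh38.p14) and gene models and 3′UTRs from GENCODE 29 (GRCh38), matched by symbol or NCBI Gene number.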

Additional observations from a re-analysis of the deposited data

How the results depend on the processing

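No called result changed sign. Over 15 alternatives for each of the 44 members, 615 of 660 comparisons kept the call, 34 lost it and 11 gained it. Of the 23 called members 15 kept the call throughout, and 7 of the 21 others were called at least once. Quantile normalization gave a median log2 fold change of 0.029 for the members, -0.037 for partners outside the rule (-0.046 after rescaling to a common total), -0.098 for transcription and ubiquitin genes, 0.097 for COP9, 0.067 for eIF3, 0.230 for CCT, 0.074 for ribosomal proteins and 0.170 for heat shock genes. Leaving out 1 sample gave 12 to 18 members higher and 6 to 7 lower, and medians of 0.068 to 0.095 for the members, -0.044 to -0.012 for partners, -0.078 to -0.041 for p97 cofactors and shuttles, 0.103 to 0.142 for eIF3, 0.269 to 0.310 for CCT and 0.186 to 0.246 for heat shock genes, and counts called of 7 to 10 for transcription and ubiquitin genes and 5 to 10 for eIF3. Beyond what the report names, the calls of other members did not depend on a single sample, except that PSMB2 gained one without sh-TRAF2 replicate 3, PSMB3, PSMB6, PSMD8 and PSMD11 without sh-NC replicate 2, and PSMG3 without sh-NC replicate 1. The cause of these shifts was not tested. Same-numbered samples did not deviate together (correlations -0.0812, 0.0722 and 0.0728), so the numbers were not read as pairs, and a replicate block gave 19 members higher and 7 lower. The fit by limma-voom was chosen after seeing the data. Groups of 3 samples limit exact tests to p = 0.1 or more.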
